A study of Mus musculus with 18 samples.

Results

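The 9 genes described here encode the receptor chains through which cells receive interleukin 4 (IL-4), interferon gamma (IFN-γ), interleukin 10 (IL-10) and interleukin 6 (IL-6). They were chosen by name, as the signalling chains of these 4 cytokines, from the 54446 genes in the deposited table. They are Il4ra, Il13ra1 and Il2rg for IL-4, Ifngr1 and Ifngr2 for IFN-γ, Il10ra and Il10rb for IL-10, and Il6ra and Il6st for IL-6. RNA was measured in peritoneal eosinophils of Il5Tg animals. These mice, labelled with the C57BL/6 strain, overexpress Il5 from a transgene. Because it supplies extra IL-5, the main eosinophil growth factor, these cells come from mice with far more eosinophils than normal. Every group was cultured for 18 h with apoptotic cells (ACs), which were wild-type thymocytes killed with dexamethasone. The eosinophils were afterwards enriched again with beads against Siglec-F, a surface lectin of mouse eosinophils. The Type 1 experiment held controls with ACs alone and 3 stimulated groups, which received E. coli, IFN-γ, or IFN-γ followed by E. coli, with 3 libraries in each of its 4 groups. The IL-4 experiment held ACs alone and IL-4 + ACs, again with 3 libraries each. The thymocytes came from mice 4 to 6 weeks old. Ages of the eosinophil donors and doses of E. coli, IFN-γ and IL-4 are not given in the sources used here. The labels do not say whether a library pooled animals. Eosinophils that had not met ACs were not used here, and each comparison asks how a stimulus changed the receptor transcripts of cells that had met them.

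All 4 receptors work by bringing chains together at the cell surface, which lets JAK kinases bound to the chains activate STAT transcription factors. IL-4 binds the IL-4 receptor alpha chain (Il4ra), which then pairs either with the common gamma chain (Il2rg) or with Il13ra1, and the latter pair also receives IL-13. IFN-γ binds Ifngr1 and needs Ifngr2 to signal, while IL-10 binds Il10ra and shares Il10rb with IL-22 and the lambda interferons, and signals mainly through STAT3. IL-6 binds Il6ra and signals through gp130 (Il6st), which is also the signalling chain for LIF, oncostatin M, IL-11 and IL-27. In eosinophils, IL-4 is a classical Type 2 signal, whereas IFN-γ and bacteria stand for Type 1 inflammation.

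The promoters of the chains that passed the threshold against ACs alone are shown because they hold the start sites annotated for these genes, and that of Ifngr2 because it held more of the motifs searched than any other window of the 9 genes. The libraries count 3′ ends, so the start sites in use were not observed. Each window runs from 250 bases before to 50 bases after the RefSeq start site on GRCm38.p6, is written 5′ to 3′ on the strand of the gene, and has CpG dinucleotides in capitals. Il13ra1 and Il2rg rose and Ifngr1 fell with IFN-γ, and Il6ra and Il6st fell with E. coli.
Il13ra1, chrX:36111858-36112157, plus strand: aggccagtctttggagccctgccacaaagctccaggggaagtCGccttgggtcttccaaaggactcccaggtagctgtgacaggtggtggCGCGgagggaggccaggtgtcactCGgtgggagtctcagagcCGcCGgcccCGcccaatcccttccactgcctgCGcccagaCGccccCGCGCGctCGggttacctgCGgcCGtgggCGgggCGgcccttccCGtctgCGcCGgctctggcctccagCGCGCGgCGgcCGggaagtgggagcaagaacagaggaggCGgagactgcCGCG
Il2rg, chrX:101268206-101268505, minus strand: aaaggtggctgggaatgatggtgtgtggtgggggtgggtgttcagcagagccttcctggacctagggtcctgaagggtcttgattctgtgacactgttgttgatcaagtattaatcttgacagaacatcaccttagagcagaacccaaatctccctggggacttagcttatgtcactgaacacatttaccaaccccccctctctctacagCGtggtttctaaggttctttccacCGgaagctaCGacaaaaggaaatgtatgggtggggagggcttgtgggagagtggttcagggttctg
Ifngr1, chr10:19591699-19591998, plus strand: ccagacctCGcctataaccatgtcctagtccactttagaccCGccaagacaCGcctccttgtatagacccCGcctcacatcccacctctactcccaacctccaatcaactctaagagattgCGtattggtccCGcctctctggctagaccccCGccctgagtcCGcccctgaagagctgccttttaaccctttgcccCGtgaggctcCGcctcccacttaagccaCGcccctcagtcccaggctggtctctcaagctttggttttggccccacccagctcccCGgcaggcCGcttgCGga
Ifngr2, chr16:91546809-91547108, plus strand: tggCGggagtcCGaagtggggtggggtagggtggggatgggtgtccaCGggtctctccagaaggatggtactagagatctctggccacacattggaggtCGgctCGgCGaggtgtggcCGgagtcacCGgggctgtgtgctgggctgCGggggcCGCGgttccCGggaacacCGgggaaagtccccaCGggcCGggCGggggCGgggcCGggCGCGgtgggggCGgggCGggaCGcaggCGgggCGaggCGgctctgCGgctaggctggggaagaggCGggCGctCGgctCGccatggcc
Il6ra, chr3:89913147-89913446, minus strand: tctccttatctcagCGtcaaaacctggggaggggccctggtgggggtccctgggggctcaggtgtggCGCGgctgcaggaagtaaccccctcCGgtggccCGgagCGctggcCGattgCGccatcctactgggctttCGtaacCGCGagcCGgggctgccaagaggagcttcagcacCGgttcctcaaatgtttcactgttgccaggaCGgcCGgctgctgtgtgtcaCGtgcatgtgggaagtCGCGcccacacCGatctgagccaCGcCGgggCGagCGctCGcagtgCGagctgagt
Il6st, chr13:112463820-112464119, plus strand: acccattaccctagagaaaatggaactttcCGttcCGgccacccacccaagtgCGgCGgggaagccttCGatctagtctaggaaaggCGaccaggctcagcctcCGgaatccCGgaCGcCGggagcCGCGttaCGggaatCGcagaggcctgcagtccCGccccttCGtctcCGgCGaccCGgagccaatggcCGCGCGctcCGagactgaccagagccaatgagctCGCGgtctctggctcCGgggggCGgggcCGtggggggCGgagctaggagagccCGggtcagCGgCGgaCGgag

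Of the 9 genes, 7 had a window among the 32851 windows of the RefSeq table, and Il10ra and Il10rb had none. The Il2rg window held only 3 CpGs, and 23.3% of all windows held fewer. The other windows were richer in CpG, with 14 in Ifngr1, 25 in Il4ra and in Il6ra, 28 in Il13ra1, 31 in Ifngr2 and 33 in Il6st, against a median of 7 over all windows. The windows were searched on both strands for 4 motifs. These were the GAS element bound by STAT factors (TTCNNNGAA, in 8.3% of all windows), the longer-spaced site preferred by STAT6 (TTCNNNNGAA by its letters, in 6.95%), the interferon response element (GAAANNGAAA, in 3.44%) and the κB site of NF-κB (in 8.46%). The Ifngr2 window held a STAT6-type site, TTCCCGGGAA, at positions -91 to -82, with the start base as 0, followed by a κB-type site, GGAAAGTCCC, at -75 to -66. The Il4ra window held a κB-type site, GGAAAGCCCC, at 20 to 29 after the start. None of the 4 motifs was found in the windows of Il13ra1, Il2rg, Ifngr1, Il6ra or Il6st. These are matches of letters and describe the windows only.

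The 9 genes are scattered over 7 chromosomes of GRCm38, and only Il10rb and Ifngr2 are near neighbours. Il10rb (ENSMUSG00000022969.13, chromosome 16, 91406164 to 91425834) and Ifngr2 (ENSMUSG00000022965.8, 91547072 to 91565623) lie on the plus strand in the interferon receptor cluster, in the order Ifnar2, Il10rb, Ifnar1 and Ifngr2, with 121238 bases between the end of Il10rb and the start of Ifngr2. Il4ra (ENSMUSG00000030748.9) lies on chromosome 7 from 125552120 to 125579474. Il13ra1 (ENSMUSG00000017057.9) and Il2rg (ENSMUSG00000031304.18) are on the X chromosome, from 36112110 to 36171259 and from 101264378 to 101268255. Ifngr1 (ENSMUSG00000020009.13) is on chromosome 10 from 19591949 to 19610229, and Il10ra (ENSMUSG00000032089.16) is on chromosome 9 from 45253837 to 45269149. Il6ra (ENSMUSG00000027947.11) lies on chromosome 3 from 89864059 to 89913196, and Il6st (ENSMUSG00000021756.12) on chromosome 13 from 112464070 to 112510086. Annotated genes that overlap them, among them Gm20489 over Il2rg and Gm21970 over Il10rb, had mean normalized counts from 0 to 0.047, so few or no reads were assigned to them. The libraries count 3′ ends of transcripts (CEL-Seq2), and a count does not separate the soluble from the membrane-bound forms of these receptors.

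Values are normalized counts, which are reads on a gene divided by a size factor of the library, and they compare a gene between libraries but not one gene with another. Between 779421 and 7782072 reads were counted per library. Replicate 3 of both groups of the IL-4 experiment was shallow, with 849705 and 779421 reads, so that 3 reads there stand for normalized counts of 15.42 and 16.08. All 9 genes were above the minimum mean normalized count of 10 in every fit, so all 9 were tested in every comparison. The eosinophil markers Siglecf (1514 to 3367) and Ccr3 (2623 to 4934) were high in every library, whereas Epx, the eosinophil peroxidase, was at most 25.7 and at 0 in 2 libraries. The 6 macrophage markers were also present in every library, with a summed normalized count from 4162 to 6991 and none of them at 0. Adgre1 among them, which encodes F4/80, is also carried by mouse eosinophils. By PCR, the study found transcripts of Timd4, and to a lesser extent Mertk, in its peritoneal eosinophils. It did not find the protein of Timd4 on them. These genes are therefore not specific to macrophages at the RNA level here. The study also checked eosinophil purity by flow cytometry after the co-culture. The summed markers of thymocytes and T cells reached 159, those of B cells 72.8, those of neutrophils 39.0 and those of mast cells and basophils 51.0. In bulk RNA, fewer cells of a type and less RNA per cell cannot be told apart. For its figure of eosinophils with and without ACs, the study states that each lane came from a different mouse. Its statistics name 3 biological replicates. Which animal a library came from is not in the labels, and p-values measure the spread between these libraries.

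**Figure D1:**
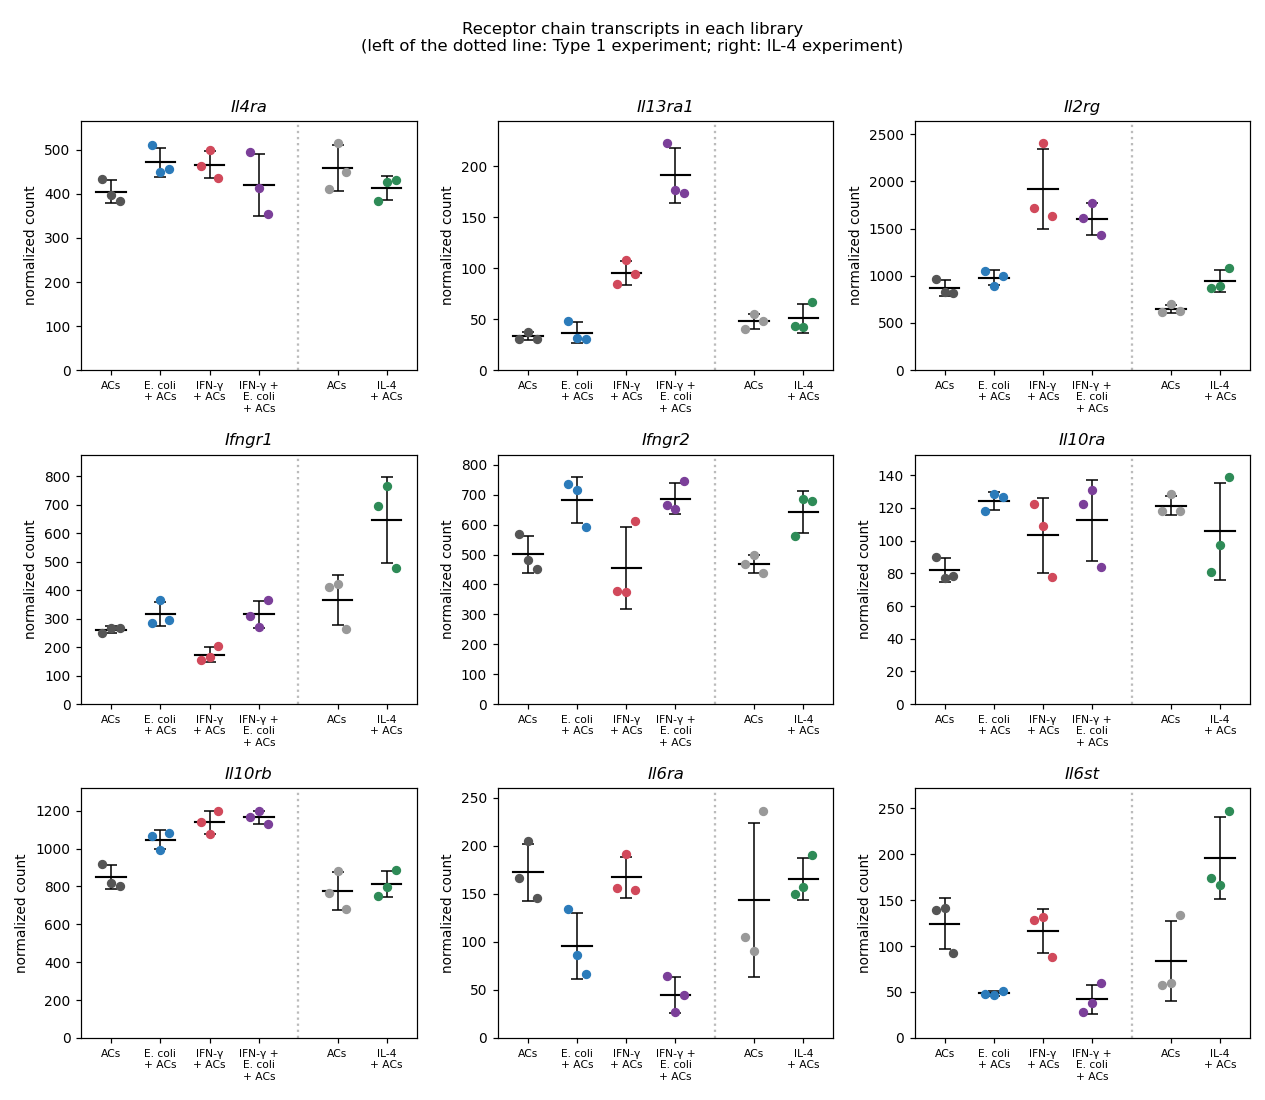
Normalized counts of the 9 receptor chains in each of the 18 libraries, 1 panel per gene with its own axis from 0. Points are libraries in the order of replicates 1 to 3, and bars are the mean ± SD of 3 libraries. The ACs group at left is that of the Type 1 experiment and the ACs group right of the dotted line that of the IL-4 experiment. Il13ra1 is highest in the 3 IFN-γ + E. coli + ACs libraries (174 to 222), and within the Type 1 experiment Il6st is lowest in the 6 libraries with E. coli (28.5 to 59.3).

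With IFN-γ + ACs, 2 of the 9 chains rose and 1 fell relative to ACs alone. A gene was counted as changed where limma gave an adjusted p under 0.05 together with a 1.5-fold or larger difference on log2(normalized count + 1), and every fold change below is on that scale. Over all 10166 genes tested, 11.4% were higher and 9.96% lower in this comparison. Both chains that rose are partners of Il4ra, and the chain that fell was Ifngr1, the ligand-binding chain for IFN-γ itself. The median log2 fold change of the 9 chains was 0.21, beside 0.00 for all genes tested. Among genes with a mean of at least 50, it was 0.075, with 14.5% higher and 9.56% lower. Markers of cell types moved in the same comparison. Of the 5 eosinophil markers tested 3 fell, namely Siglecf (log2 fold change -0.99), Ear6 (-0.93) and Il5ra (-0.71), and the summed normalized count of the 6 eosinophil markers was 4829 to 5658 with IFN-γ + ACs and 7549 to 7970 with ACs alone. Of the 6 macrophage markers, Mertk (1.81) and Timd4 (0.997) rose, and their sum was 5904 to 6991 against 4761 to 5582. Of 4 neutrophil markers only Ly6g could be tested, and of 4 mast cell and basophil markers only Cpa3. Ly6g (2.16) and Cpa3 (2.75) rose, from means of 3.7 and 4.1 to 21.6 and 25.4. The untested markers did not share such a rise. Means of Mpo (1.63 to 0), Elane (2.02 to 0) and Kit (1.67 to 1.56) were lower, Camp (0.31 to 2.89) and Mcpt4 (0.27 to 0.38) were higher, and Mcpt8 stayed at 0. The part of these cell types in the changes of the receptor chains was not tested.

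Il13ra1, which forms the receptor shared by IL-4 and IL-13, had normalized counts of 30.9, 37.5 and 31.0 with ACs alone and 84.4, 108 and 94.4 with IFN-γ + ACs. The groups did not overlap. On the log2 scale Il13ra1 rose by 1.498 (SE 0.23, n = 3 per group), a 2.82-fold rise, with an adjusted p of 5.18e-05 in limma. Il2rg, the common gamma chain also used by IL-2, IL-7, IL-9, IL-15 and IL-21, had 970.1, 829 and 813 with ACs alone and 1715, 2404 and 1629 with IFN-γ + ACs. Every IFN-γ library lay above every ACs library, and replicate 2 was the highest. Its log2 fold change was 1.12 (SE 0.14), which is 2.17-fold, with an adjusted p of 6.01e-06 in limma.

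Il4ra itself, the chain that binds IL-4, did not pass the threshold. Its normalized counts were 433, 397 and 383 with ACs alone and 463, 499.8 and 437 with IFN-γ + ACs, a log2 difference of 0.21 with a 95% confidence interval from -0.08 to 0.49. Across the 4 groups of the Type 1 experiment its means were between 405 ± 25.9 and 472 ± 33.2 (SD, n = 3), and neighbouring groups in this order overlapped throughout.

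Ifngr1 had normalized counts of 249, 267 and 268 with ACs alone and 153, 164 and 205 with IFN-γ + ACs. All 3 stimulated libraries lay below all 3 controls, by 0.60 on the log2 scale (log2 fold change -0.60, SE 0.16, adjusted p = 0.00821 in limma), which is 1.51-fold lower and only just past the fold threshold. Without ACs replicate 2 or 3, or IFN-γ + ACs replicate 1 or 2, the log2 fold change was -0.58, -0.58, -0.51 or -0.56 and short of 1.5-fold. Ifngr2, the signalling partner, had 377, 375 and 612 with IFN-γ + ACs against 570.1, 482 and 451 with ACs alone. Replicate 3 stood apart from the other IFN-γ libraries, the groups overlapped, and the log2 difference was -0.17 with a 95% confidence interval from -0.52 to 0.18.

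The IL-10 and IL-6 chains were not past the threshold with IFN-γ. Il10rb, the accessory chain of the IL-10 receptor, was 1.34-fold higher with an adjusted p of 0.00479 in limma, short of 1.5-fold. Its values were 1140, 1077 and 1196 against 919.7, 818 and 803, without overlap. Il10ra, which binds IL-10, had a log2 difference of 0.31 with a 95% confidence interval from -0.13 to 0.75. The log2 differences of Il6ra and Il6st were -0.04 (95% confidence interval -0.62 to 0.55) and -0.10 (-0.65 to 0.46).

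**Figure D2:**
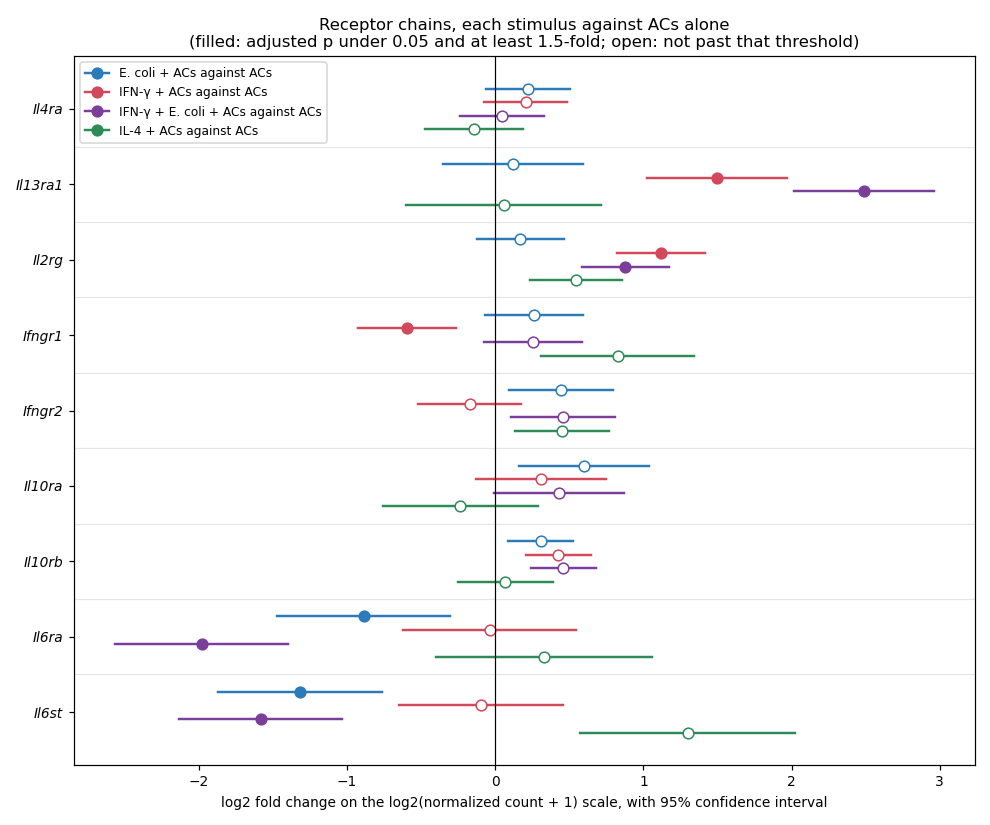
Log2 fold change of each receptor chain against ACs alone of its own experiment, for 4 stimuli, with 95% confidence intervals on the log2(normalized count + 1) scale. Filled points passed an adjusted p of 0.05 and 1.5-fold, and open points did not. Il13ra1 and Il2rg are filled on the right for both IFN-γ groups, Il6ra and Il6st on the left for both E. coli groups, and no point is filled for IL-4.

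With E. coli + ACs, none of the 9 chains rose and 2 fell, against 5.05% of all tested genes higher and 5.25% lower. Both that fell belong to the IL-6 receptor. The median log2 fold change of the 9 chains was 0.22, beside -0.00 for all genes tested. Among genes with a mean of at least 50, it was 0.05, with 6.51% higher and 5.74% lower.

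Il6st, which encodes gp130, had normalized counts of 139, 142 and 92.2 with ACs alone and 47.7, 46.6 and 51.0 with E. coli + ACs. The E. coli libraries differed little among themselves and lay below every control. Il6st was 2.49-fold lower (log2 fold change -1.32, SE 0.26, n = 3 per group), with an adjusted p of 0.00188 in limma. Il6ra, the chain that binds IL-6, had 167, 205 and 145 with ACs alone and 134, 85.8 and 66.9 with E. coli + ACs, also without overlap. Il6ra was 1.85-fold lower (log2 fold change -0.89, SE 0.28, adjusted p = 0.0411 in limma). This call was lost without any one of the ACs replicates (adjusted p = 0.0953 without replicate 1, 0.168 without replicate 2 and 0.0601 without replicate 3), and without E. coli replicate 2 or 3 (adjusted p = 0.121 and 0.199), while the log2 fold change over these fits ran from -1.003 to -0.66.

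Some of the 6 macrophage markers fell in the same comparison as the IL-6 receptor chains. Their summed normalized count was 4761 to 5582 with ACs alone, 4162 to 4429 with E. coli + ACs, 5904 to 6991 with IFN-γ + ACs and 4561 to 4983 with IFN-γ + E. coli + ACs. With E. coli + ACs, 3 of the 6 fell past the threshold, namely C1qa (log2 fold change -1.32, adjusted p = 0.000802), Timd4 (-1.27, adjusted p = 0.00556) and Cd68 (-0.90, adjusted p = 0.00159), and none rose past it. Adgre1, the largest part of the sum, was higher (0.39, adjusted p = 0.0123 in limma), short of 1.5-fold. Csf1r was lower (-0.47, adjusted p = 0.0111), also short of it. None of the 6 was at 0 in any library. Among the genes whose pattern over the 18 libraries was most like that of Il6ra were Gata6, a transcription factor of peritoneal macrophages, and Eps8 (Pearson r = 0.92 and 0.91 over 6907 genes compared, as a description). Those most like Il6st were Clec10a, a macrophage and dendritic cell lectin, Emp1 and Hspb1 (r = 0.94, 0.93 and 0.93). The part of macrophages in the fall of Il6ra and Il6st was not tested.

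**Figure D3:**
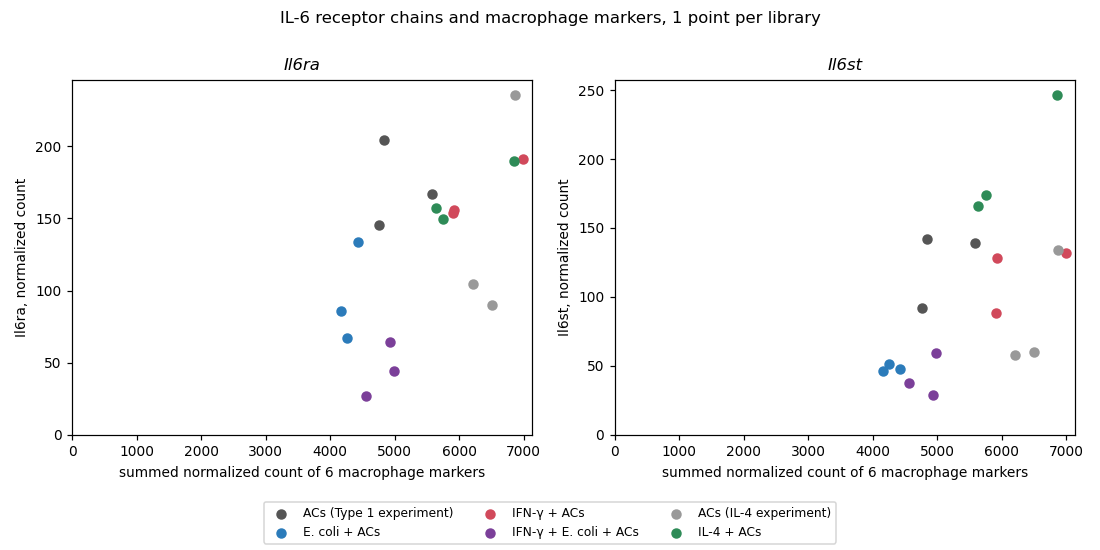
Normalized counts of Il6ra (left) and Il6st (right) against the summed normalized count of 6 macrophage markers, 1 point per library and both axes from 0. Within the Type 1 experiment, the 6 libraries with E. coli lie below the other 6 for both chains, and their marker sums (4162 to 4983) reach from below the ACs libraries of the Type 1 experiment (4761 to 5582) into their range. Adgre1 is the largest part of these sums. Its mean was 1806 with ACs alone, 2366 with E. coli + ACs and 2987 with both stimuli. Csf1r, Cd68, Timd4 and C1qa had lower means in both E. coli groups than with ACs alone. Mertk was lower with E. coli + ACs and higher with both stimuli.

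The other 7 chains did not pass the threshold with E. coli. Il10ra came closest among them in size, with 118, 128 and 127 against 90.3, 77.0 and 78.3 and no overlap. It was 1.52-fold higher (log2 fold change 0.60), with an adjusted p of 0.0656 in limma, and the adjusted p was 0.044 in edgeR and 0.0330 in DESeq2 on the recovered reads. It also fell under 0.05 in limma without IFN-γ + ACs replicate 3 (0.0386) or IFN-γ + E. coli + ACs replicate 3 (0.0356), which entered the fit only through the shared spread. Ifngr2 and Il10rb, neighbours in the cluster on chromosome 16, were 1.36-fold and 1.24-fold higher with adjusted p of 0.0878 and 0.0598. The log2 differences of Ifngr1, Il4ra, Il2rg and Il13ra1 were 0.26, 0.22, 0.17 and 0.12, each with a 95% confidence interval that included 0.

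With IFN-γ followed by E. coli, 2 of the 9 chains rose and 2 fell, against 14.7% of all tested genes higher and 17.2% lower, or 11.4% and 21.6% when libraries were rescaled to a common upper quartile. The chains that rose were again Il13ra1 and Il2rg and those that fell Il6ra and Il6st, whereas Ifngr1 did not pass. The median log2 fold change of the 9 was 0.43, beside -0.05 for all genes tested. Among genes with a mean of at least 50, the median was 0.095, with 19.3% higher and 14.3% lower.

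Il13ra1 reached 222, 177 and 174, above every library of the other 3 groups of its experiment. The log2 fold change against ACs alone was 2.49 (SE 0.23, adjusted p = 5.88e-08 in limma), a 5.61-fold rise. Il2rg was at 1614, 1768 and 1428, above the controls and overlapping the range of IFN-γ + ACs. Its log2 fold change was 0.88 (SE 0.14, adjusted p = 6.11e-05 in limma), or 1.84-fold. Il6ra had 64.2, 26.9 and 44.2, a log2 fold change of -1.98 (SE 0.28, adjusted p = 1.51e-05 in limma), 3.95-fold lower. Il6st had 28.5, 37.9 and 59.3, a log2 fold change of -1.58 (SE 0.26, adjusted p = 9.15e-05 in limma), 2.997-fold lower. The lowest of these values rested on 22 reads for Il6ra and 20 reads for Il6st. Of the macrophage markers, C1qa (log2 fold change -2.49) and Cd68 (-1.57) fell with the same stimulus, and Adgre1 (0.72) and Mertk (0.60) rose. Of the 5 eosinophil markers tested 1, Siglecf (-0.76), fell, and the sum of the list was 6927 to 8305.

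Ifngr2 and Il10rb again shifted up by less than 1.5-fold. Ifngr2 had 666, 651 and 745 and was 1.38-fold higher (adjusted p = 0.0355 in limma), and Il10rb had 1166, 1196 and 1130.0 and was 1.38-fold higher (adjusted p = 0.00177). Il10ra was split between libraries at 123, 131 and 84.2, and its adjusted p of 0.11 became 0.0254 without replicate 3, when the log2 fold change was 0.63 and not 0.43. Ifngr1 (log2 difference 0.26) and Il4ra (0.04) had 95% confidence intervals that included 0.

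E. coli added to IFN-γ was compared with IFN-γ alone. Here 3 chains were higher and 2 lower, against 5.96% and 8.61% of all genes tested. Il13ra1 was 1.99-fold higher (log2 fold change 0.99, SE 0.23, adjusted p = 0.00417 in limma), and the groups did not overlap. Ifngr1, at 311, 270.0 and 364 against 153, 164 and 205, was 1.81-fold higher (log2 fold change 0.85, SE 0.16, adjusted p = 0.000774). Ifngr2 was 1.55-fold higher (log2 fold change 0.63, adjusted p = 0.011), but its log2 fold change was 0.52 without IFN-γ + ACs replicate 1, 0.51 without replicate 2 and 0.57 without IFN-γ + E. coli + ACs replicate 3, each short of 1.5-fold. It was also short of it, at 0.58, under upper quartile scaling. Il6ra (log2 fold change -1.94, adjusted p = 7.05e-05) and Il6st (-1.49, adjusted p = 0.000524) were lower, and 4 of the 6 macrophage markers were lower and 2 of the 5 eosinophil markers tested were higher in the same comparison. The macrophage marker Adgre1 was higher (0.52, adjusted p = 0.00104 in limma), short of 1.5-fold.

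IFN-γ given before E. coli was then compared with E. coli alone. Il13ra1 was 5.16-fold higher (log2 fold change 2.37, adjusted p = 3.14e-07 in limma) and Il2rg 1.63-fold higher (0.71, adjusted p = 0.0011), while Il6ra was 2.13-fold lower (-1.09, adjusted p = 0.00749). Of the macrophage markers C1qa (-1.17, adjusted p = 0.00145) and Cd68 (-0.67, adjusted p = 0.00907) were lower and Mertk (1.00, adjusted p = 0.000568) was higher, and the eosinophil markers Ear6 (-1.07) and Prg2 (-0.70) were lower. The 2 chains that were higher and 1 that was lower stand against 9.79% and 9.57% of all genes tested, or 7.56% and 13.3% under upper quartile scaling. Without E. coli + ACs replicate 1, which had the highest Il6ra of its group, the Il6ra log2 fold change was -0.82 with an adjusted p of 0.059. Ifngr1 and Ifngr2 had log2 differences of -0.00 and 0.02, with 95% confidence intervals from -0.34 to 0.33 and from -0.33 to 0.36. The means of Ifngr1 were 174 ± 27.5 with IFN-γ + ACs, 316 ± 42.9 with E. coli + ACs and 315 ± 47.3 with both stimuli (SD, n = 3).

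Whether the effects of IFN-γ and E. coli added up was tested as an interaction. No chain passed the threshold in limma, beside 3.16% of all genes higher and 4.28% lower than additive. In edgeR and DESeq2 0 chains were called as well. The shares of all genes higher and lower were 3.9% and 4.21% in edgeR, and 4.77% and 4.99% in DESeq2. Before adjustment over genes, the 95% confidence intervals of Il13ra1, Ifngr1 and Il6ra did not include 0. The share of all genes with such an interval was not counted. Il13ra1 was 1.83-fold above the additive value (log2 interaction 0.87, SE 0.32, adjusted p = 0.106 in limma), Ifngr1 was 1.51-fold above it (0.59, SE 0.22, adjusted p = 0.116), and Il6ra was 2.08-fold below it (-1.06, SE 0.39, adjusted p = 0.112). Ifngr1 passed without IFN-γ + ACs replicate 3 (0.71, adjusted p = 0.0483) and Il6ra without IFN-γ + E. coli + ACs replicate 1 (-1.35, adjusted p = 0.0397). The estimate for Il6st was -0.17 with a 95% confidence interval from -0.95 to 0.61.

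With IL-4 + ACs, no chain passed the threshold in limma, against 0.74% of all 10669 genes tested higher and 0.347% lower. Before adjustment over genes, the 95% confidence intervals of Il6st, Il2rg, Ifngr1 and Ifngr2 lay above 0. The share of all genes with such an interval was not counted. The other tools gave 1 call in edgeR, against 1.19% of all genes higher and 0.797% lower, and 2 in DESeq2, against 1.2% and 0.759%. The median log2 fold change of the 9 was 0.33, beside -0.01 for all genes tested. The values of Il6st, Ifngr1 and Il6ra, whose calls moved without the shallow replicate 3 libraries, are given with them and without them. Without them only 2 libraries per group remained, so those adjusted p rest on fewer libraries.

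Il6st had normalized counts of 174, 166 and 247 with IL-4 + ACs and 57.9, 59.95 and 134 with ACs alone. All IL-4 libraries lay above all controls, and replicate 3 was the highest in both groups, where it rested on 48 and 25 reads. It was 2.46-fold higher (log2 fold change 1.30, SE 0.33), with an adjusted p of 0.148 in limma, 0.0105 in edgeR and 0.00173 in DESeq2. Without ACs replicate 3 it was 1.69 with an adjusted p of 0.00996, and without both shallow libraries it was 1.51 with an adjusted p of 0.000205. The summed macrophage markers were 5637 to 6857 with IL-4 + ACs and 6213 to 6873 with ACs alone, and none of the 6 passed the threshold. The summed eosinophil markers were 13760 to 15035 with IL-4 + ACs and 9163 to 12214 with ACs alone. Of these 6 only Ear6 rose past the threshold (log2 fold change 0.91, adjusted p = 0.0298 in limma). Its mean was 4515 with ACs alone and 8328 with IL-4 + ACs. Means of Siglecf (2625 to 2379) and Ccr3 (3440 to 3100) were lower with IL-4 + ACs. Those of Prg2, Il5ra and Epx were higher, short of the threshold. The part of these cell types in the change of Il6st was not tested.

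Ifngr1 had 697, 765 and 478 with IL-4 + ACs and 412, 421 and 263 with ACs alone. Replicate 3 was the lowest in both groups, and no stimulated library fell into the range of the controls. It was 1.77-fold higher (log2 fold change 0.83, SE 0.23), with an adjusted p of 0.218 in limma, 0.0512 in edgeR and 0.0124 in DESeq2, and without both shallow libraries it was 0.81 with an adjusted p of 0.000918. Il2rg had 876, 887 and 1085 against 618, 697 and 627, a 1.46-fold difference (log2 0.55, 95% confidence interval 0.24 to 0.86, adjusted p = 0.156 in limma). Ifngr2 had 563, 686 and 678 against 467, 499.0 and 439.6, a 1.37-fold difference (log2 0.45, 95% confidence interval 0.13 to 0.77, adjusted p = 0.314). Neither pair of groups overlapped.

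Il6ra was uneven in the controls of the IL-4 experiment, with 105, 90.3 and 236, the last from 44 reads in the shallow library, against 149, 157 and 190.2 with IL-4 + ACs. The log2 difference of 0.33 (adjusted p = 0.772) became 0.65 with an adjusted p of 0.0297 without both shallow libraries. Il4ra had 383, 427 and 432 with IL-4 + ACs and 411, 515 and 450.4 with ACs alone, a log2 difference of -0.14 with a 95% confidence interval from -0.47 to 0.19. The log2 differences of Il13ra1 (0.06), Il10rb (0.07) and Il10ra (-0.24) also had intervals that included 0. That of Il13ra1 was negative in edgeR and DESeq2, and those of Il13ra1 and Il10rb were negative without both shallow libraries.

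The response to IL-4 was compared with the response to IFN-γ, each against the ACs libraries of its own experiment, in a fit of all 18 libraries. The stimulus and the experiment cannot be told apart in this comparison. Of the 9 chains, 2 were higher with IL-4 relative to IFN-γ and 1 was lower, against 6.17% and 8.09% of the 10414 genes tested. For Ifngr1 the log2 fold change was -0.60 with IFN-γ, past the threshold, and 0.83 with IL-4, not past it (adjusted p = 0.218), and the difference was 1.42 (SE 0.28, adjusted p = 0.00102 in limma). Il13ra1 passed the threshold with IFN-γ and not with IL-4, and the difference was -1.44 (SE 0.35, adjusted p = 0.00633). Il6st differed by 1.39 (SE 0.43, adjusted p = 0.0333). The call for Il6st was lost without ACs replicate 1 or 2 or IFN-γ + ACs replicate 3 of the Type 1 experiment (adjusted p = 0.0802, 0.0851 and 0.0866), and without IL-4 + ACs replicate 3 or ACs replicate 1 or 2 of the IL-4 experiment (0.0772, 0.0852 and 0.0846). Il2rg differed by -0.57 (adjusted p = 0.0592) and Ifngr2 by 0.62 (adjusted p = 0.0751). Il2rg passed without ACs replicate 1 of the Type 1 experiment (-0.65, adjusted p = 0.0499), IFN-γ + ACs replicate 3 (-0.68, 0.0302) or IL-4 + ACs replicate 3 (-0.67, 0.0277), and Ifngr2 passed without IFN-γ + ACs replicate 3 (0.86, 0.00426). Il2rg also passed in edgeR (-0.595, adjusted p = 0.0461), in DESeq2 (-0.60, 0.0325) and without both shallow libraries (-0.69, 0.0271), and Ifngr2 under upper quartile scaling (0.71, 0.0379). In the same comparison 3 of the 5 eosinophil markers tested, Siglecf, Il5ra and Ear6, were higher and 1 of the 6 macrophage markers, Mertk, was lower, and their part in these differences was not tested.

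Over the 18 libraries, with each value taken relative to the mean of the ACs libraries of its own experiment, the chains of a receptor were alike in some receptors and not in others. Pearson r was 0.82 for Il6ra with Il6st and 0.72 for Ifngr1 with Ifngr2, but 0.30 for Il4ra with Il13ra1 and 0.305 for Il4ra with Il2rg, as a description without a test. Il13ra1 and Il2rg, the alternative partners of Il4ra, had an r of 0.79. Il10ra was more like Il4ra (0.75) than like Il10rb (0.68), and Il10rb was like Il13ra1 (0.78). The genes most like Il13ra1 were Nub1, Dubr and Vmp1 (r = 0.98, 0.98 and 0.97), and those most like Il2rg were Efhd2, Hspa8 and Lgals3 (0.93, 0.92 and 0.92). Cish, an inhibitor of STAT5 signalling, was the gene next to Glipr2 in likeness to Ifngr1 (r = 0.87), and Exosc3 followed with the same value after rounding. Txndc12 (0.93), Coro1c and Vps33a (0.82 and 0.82) were most like Il4ra, Fbxo33, Srsf6 and Asph (0.88, 0.86 and 0.86) most like Ifngr2, Actr1a and Vps29 (0.92 and 0.91) among those most like Il10ra, and Rab22a, Mettl9 and Bnip2 (0.96, 0.94 and 0.93) most like Il10rb. The 18 libraries share stimuli, so these values are not from independent conditions.

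Related receptors were read from lists of the same families. Of 8 further receptors that use the common gamma chain or belong to the IL-4 and IL-13 family, 5 were abundant enough to test. Il15ra, the alpha chain for IL-15, rose by 1.25 on the log2 scale with IFN-γ + ACs (adjusted p = 3.18e-07 in limma) and by 1.14 when E. coli followed (adjusted p = 6.86e-07), and Il2ra rose with E. coli + ACs (1.16, adjusted p = 0.0307). No other receptor of that list passed against ACs alone. Il13ra2, the decoy for IL-13, was at 0 in every library of the Type 1 experiment. Of 7 further receptors of the interferon and IL-10 class, 3 could be tested, and Ifnar2, a chain of the type I interferon receptor next to Il10rb, rose by 0.97 with IFN-γ + ACs (adjusted p = 0.000367) and by 1.21 when E. coli followed (adjusted p = 2.2e-05). Of 10 further receptors of the gp130 family, 6 could be tested. Lifr, the partner of gp130 for LIF, fell by 0.79 with E. coli + ACs (adjusted p = 0.00211), by 1.27 with IFN-γ + ACs (adjusted p = 6.18e-06) and by 1.41 with both stimuli (adjusted p = 1.07e-06). Il12rb1, a chain of the IL-12 receptor, had 2, 2 and 4 reads with ACs alone, a mean normalized count below that of 3 reads. Its mean was 43.0 with IFN-γ + ACs (adjusted p = 7.05e-05) and 30.4 with both stimuli (adjusted p = 0.000172), and no fold is given against so few reads. With IL-4 + ACs, none of the tested members of the 3 lists passed in limma.

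The ligands of these receptors were read in the same libraries, and bulk RNA does not show which cells made them. Of 11 ligands 7 could be tested, and Ifng was at or near 0, with group means of at most 0.5. E. coli + ACs raised 4 and lowered none. Il10 went from 31.9 to 275 (log2 fold change 3.12, adjusted p = 2.83e-07 in limma), Il27 rose by 1.44, Ebi3 by 1.36 and Il6 by 0.98 on the log2 scale, in the group in which Il6ra and Il6st fell. With IFN-γ + ACs Il10 (1.46) and Il27 (1.11) rose. With IFN-γ + E. coli + ACs Il27 (2.54), Il6 (1.75), Ebi3 (1.35) and Il10 (1.34) rose and Il11 (-1.33) fell. The interaction for Il10 was -3.25 (adjusted p = 3.73e-05), so that its mean of 78.9 with both stimuli was below the 275 with E. coli alone. With IL-4 + ACs, Il6 was the ligand that passed, from 40.6 to 273 (2.76, adjusted p = 0.00567).

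Among the 10 JAKs and STATs reported here, Stat3 (log2 fold change 1.08) and Stat2 (0.75) rose with IFN-γ + ACs and none fell. With IFN-γ + E. coli + ACs Stat3 (1.72), Stat2 (1.18) and Stat5b (0.96) rose and none fell. With E. coli + ACs only Jak2, a kinase of the IFN-γ and IL-6 receptors, passed, and it fell (-0.76, adjusted p = 0.000354 in limma). With IL-4 + ACs 9 could be tested and none passed.

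Of 16 inhibitors, 2 rose and 1 fell with IFN-γ + ACs. Socs1, the feedback inhibitor of IFN-γ and IL-4 signalling, went from 2698 to 7513 (log2 fold change 1.48, adjusted p = 5.74e-05 in limma), Ptpn2, a phosphatase of JAK1, rose by 0.92, and Ptpn1 fell by 0.61 on the log2 scale. With IFN-γ + E. coli + ACs 7 rose, led by Socs1 (1.45), Ptpn2 (1.45), Socs7 (0.87) and Ptpn11 (0.73), and none fell. Socs1 was uneven between the libraries of this group, with a mean ± SD of 8088 ± 4266, against 7513 ± 310 with IFN-γ + ACs. With E. coli + ACs Socs2 (0.85) and Ptpn11 (0.67) rose. With IL-4 + ACs Socs2 (1.04, adjusted p = 0.0203) and Cish (1.03, adjusted p = 0.00628), both induced through STAT5, rose.

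**Figure D4:**
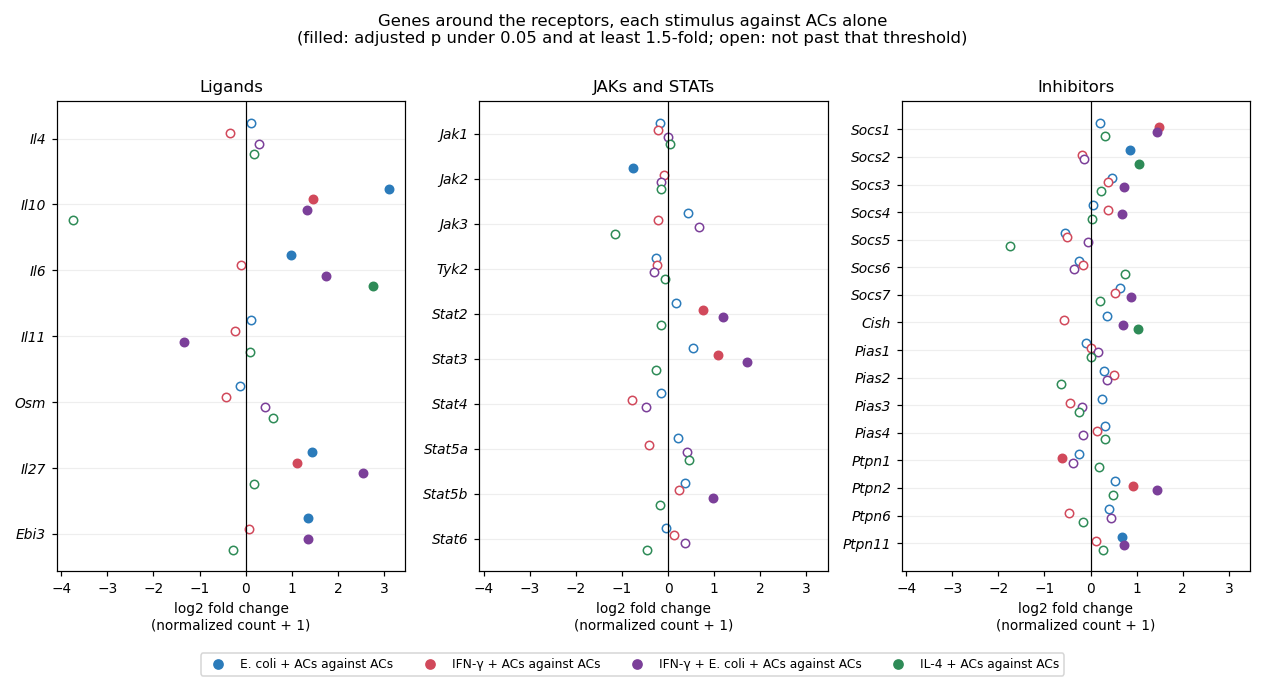
Log2 fold change against ACs alone of the same experiment for the tested ligands, JAKs and STATs, and inhibitors, on the log2(normalized count + 1) scale, for the 4 stimuli. Filled points passed an adjusted p of 0.05 and 1.5-fold, and open points did not. Stat2, Stat3 and Socs1 are filled on the right for both IFN-γ groups, and Socs2, Cish and Il6 for IL-4.

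Genes of receptor shedding and turnover were tested where abundant enough, 6 of 9 in the Type 1 experiment and 7 of 9 in the IL-4 experiment. Stam2 (log2 fold change 0.75), Rhbdf2 (0.74) and Adam17 (0.65), the protease that cuts the IL-6 receptor from the cell surface, rose with IFN-γ + ACs. Rhbdf2 (1.47), Adam17 (1.07) and Adam10 (0.84) rose with IFN-γ + E. coli + ACs. None passed with E. coli + ACs or IL-4 + ACs in limma.

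Textbook targets of the 4 cytokines were read beside their receptors. All 8 IFN-γ targets rose with IFN-γ + ACs, among them Cxcl9 (log2 fold change 7.60), Cxcl10 (4.18) and Ido1 (3.99), and all 8 rose with IFN-γ + E. coli + ACs. Ciita, with 0, 0 and 4 reads with ACs alone, had a mean of 30.8 with IFN-γ + ACs. With E. coli + ACs 1 of the 8, Cxcl10 (3.92), rose, and with IL-4 + ACs none of the 6 tested passed. Of 7 IL-4 targets tested in the IL-4 experiment 6 rose with IL-4 + ACs, led by Chil3 (2.57), Clec10a (2.44), Ccl24 (1.84) and Mrc1 (1.81). With IFN-γ + ACs 3 of the 8 IL-4 targets rose and 1 fell, with E. coli + ACs 3 fell, and with IFN-γ + E. coli + ACs 1 rose and 3 fell. Several of them, such as Mrc1 and Clec10a, are also macrophage genes. Of 6 IL-10 and IL-6 targets, 4 rose and 1 fell with both stimuli, 2 rose and 1 fell with IFN-γ + ACs, and E. coli + ACs gave a pair of calls in which Bcl3 (2.06) rose and Junb (-0.86) fell. With IL-4 + ACs Fgl2 (0.71) rose.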

How the data were processed

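RNA sequencing of 18 libraries, 3 in each of 6 groups, was read from a single table of 54446 genes by the CEL-Seq2 method, which counts 3′ ends of transcripts. The deposited signal of each gene is its number of reads after division by the DESeq2 size factor of that library. The submitters' processing notes name cutadapt 1.10, TopHat2 2.1.0, Bowtie2 2.2.6, HTSeq 0.6.1, DESeq2 1.26.0 and build GRCm38. The study's methods also describe another pipeline, and which of them gave this table is not stated there. Strand use in counting is not given in the sources used here. Whole reads were recovered for 100.0% of the values within 0.0055 and gave 779421 to 7782072 reads per library with a median of 4461121. A value under 3 reads was read as not distinct from 0, and this floor covers counting error only.

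Linear models were fitted in R 4.3.3 by limma 3.58.1, using lmFit and a trended eBayes, to log2(normalized count + 1), over genes whose mean in the fitted libraries reached 10, with Benjamini-Hochberg adjustment over all genes tested. Type 1 comparisons and their interaction were fitted on 12 libraries, IL-4 on 6, and IL-4 against IFN-γ on all 18. The 2 ACs groups were told apart by the naming style of the labels, and replicate numbers come from the labels. The deviations of same-numbered libraries from their group means had correlations of 0.169 to 0.245 between IFN-γ + ACs and IFN-γ + E. coli + ACs, against -0.162 to 0.02 for different numbers. They were not all over 0.1 between any other groups compared. Only those 2 groups were treated as possibly paired, from the data and not from the labels. Deviations in a group sum to 0, so the values for different numbers are not independent of those for same numbers. Between E. coli + ACs and IFN-γ + ACs, same-numbered libraries had -0.125 to -0.111, so these correlations do not settle the pairing. Between replicates, chi-square statistics of their reads divided by the degrees of freedom were 3.92 to 13.15, so no library was counted as a duplicate. Alternatives were a minimum mean of 50 or any value above 0, a pseudocount of 5, a replicate block, upper quartile scaling, the recovered reads tested in DESeq2 1.42.0 and edgeR 4.0.16, a joint fit of all 18 libraries, no fold threshold, the shallow libraries left out, and each library left out in turn. Fits were tested on simulated data.

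The 9 genes and all lists were chosen with earlier results of these data known. Genes named are the 9 everywhere, from each list up to 4 genes per comparison with the largest change among those past the threshold, the 3 genes most correlated with each of the 9, and defining markers, and some genes that these rules or lists would take in are not reported here. Where Il13ra2 and Ifng are named at 0 they were chosen after their values were seen. Promoters are RefSeq windows of GRCm38.p6. Gene names came from the annotation for 54409 identifiers, and 37 had none. Python 3.11.15 with pandas 2.3.3, numpy 2.4.6 and matplotlib 3.10.9 handled tables and figures.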

Additional observations from a re-analysis of the deposited data

Results flagged for a closer look

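The response of 3 chains differed between IL-4 in the IL-4 experiment and IFN-γ in the Type 1 experiment, by a test of the difference itself in limma on all 18 libraries. The log2 fold change with IL-4 minus that with IFN-γ was -1.44 for Il13ra1, 1.42 for Ifngr1 and 1.39 for Il6st. The log2 fold change of Il13ra1 was 0.06 with IL-4 and 1.498 with IFN-γ, that of Ifngr1 was 0.83 and -0.60, and that of Il6st was 1.30 and -0.10. None of the 3 passed the threshold with IL-4 alone in limma, and the stimuli were given in separate experiments. The call for Il6st was the weakest (adjusted p = 0.0333 in limma). It was lost in 6 of 18 fits with 1 library left out, and with any value above 0. The calls for Il13ra1 and Ifngr1 were kept in all of these fits.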

How the results depend on the processing

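None of the 20 values of single chains past the threshold changed direction under any alternative or with any library left out, and 4 of them lost the call under an alternative other than leaving out a library. The number of chains past the threshold with E. coli + ACs was 2, and it was 1 with any value above 0 and 1 with all 18 libraries in 1 fit, where Il6ra had adjusted p of 0.0676 and 0.0884, but 3 in edgeR and 3 in DESeq2, where Il10ra passed as well. For IL-4 against IFN-γ it was 3, and it was 4 in edgeR, DESeq2, upper quartile scaling and without both shallow libraries, and 2 with any value above 0. With IL-4 + ACs it was 0, and it was 2 with any value above 0, 1 in edgeR, 2 in DESeq2, 2 with all 18 libraries in 1 fit and 3 without both shallow libraries. Of all genes, 0.479% were higher and 0.318% lower with any value above 0. These shares were 1.19% and 0.797% in edgeR, and 1.2% and 0.759% in DESeq2. They were 1.11% and 1.01% with all 18 libraries in 1 fit. Without both shallow libraries, which left 2 per group of that experiment, they were 3.25% and 2.93%. Ifngr1 with IFN-γ fell short of 1.5-fold with a pseudocount of 5 (-0.58), Ifngr2 with E. coli added to IFN-γ under upper quartile scaling (0.58), and the difference of Il6st between IL-4 and IFN-γ lost its call with any value above 0 (adjusted p = 0.0869). Values that changed sign were never past the threshold. Upper quartile scaling turned Il4ra with IFN-γ + E. coli (-0.0950), Il10rb with E. coli added to IFN-γ (-0.0171) and Ifngr2 with IFN-γ added to E. coli (-0.0919), and it moved the median of all genes with IFN-γ + E. coli from -0.05 to -0.18 and in that last comparison from -0.04 to -0.15. Ifngr1 with IFN-γ added to E. coli turned to 0.0021 in edgeR and 0.0109 in DESeq2. With IL-4, Il13ra1 turned to -0.046 in edgeR, -0.0095 in DESeq2 and -0.1445 without both shallow libraries, where Il10rb was -0.0893.

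With each library left out in turn, the number of chains past the threshold ran from 1 to 3 with E. coli, 2 to 3 with IFN-γ, 4 to 5 with IFN-γ + E. coli, 4 to 5 for E. coli added to IFN-γ, 2 to 3 for IFN-γ added to E. coli, 0 to 1 for the interaction, 0 to 1 with IL-4, and 2 to 4 for IL-4 against IFN-γ. With libraries left out, 12 values that were not past the threshold changed sign. These were Il13ra1 with E. coli (-0.0909 to 0.2292) and with IL-4 (-0.153 to 0.1643), Il6ra and Il6st with IFN-γ (-0.1517 to 0.0943 and -0.2956 to 0.0891), Il4ra with IFN-γ + E. coli (-0.0783 to 0.1612), Il10ra and Il10rb for E. coli added to IFN-γ (-0.0643 to 0.3174 and -0.005 to 0.0705), Ifngr1, Ifngr2 and Il10ra for IFN-γ added to E. coli (-0.1145 to 0.1036, -0.0806 to 0.074 and -0.2881 to 0.0264), Il6st in the interaction (-0.4499 to 0.0659) and Il10rb with IL-4 (-0.0225 to 0.1646). The libraries of IFN-γ + ACs and IFN-γ + E. coli + ACs, and no other groups compared, were treated as possibly paired by replicate number. In a fit of these 6 libraries, chosen after seeing the data, 5 chains passed with the replicate block and 5 without it, and the block changed no call of a chain. With the replicate number as a block, the number of chains past the threshold stayed at 2 with E. coli, 3 with IFN-γ, 4 with IFN-γ + E. coli, 5 for E. coli added to IFN-γ, 3 for IFN-γ added to E. coli, 0 for the interaction, 0 with IL-4 and 3 for IL-4 against IFN-γ. Depth limits the IL-4 experiment, through its shallow libraries, and low values of Il6ra and Il6st.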
